A study of Mus musculus with 10 samples.

Results

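Heat shock and endoplasmic reticulum (ER) chaperone genes, with the stress regulators that control them, were followed in the gastrocnemius, a calf muscle, of mice lacking Skn-1 and of wild-type mice. The genes were listed by name, with earlier results of these data known. Of the 41 genes listed, 40 had at least 1 probe set assigned to that gene alone, which gave 86 of the 45037 probe sets tested. Hsp90ab1 was not analysed here, since no probe set carried it as its single gene. Skn-1 is now named Pou2f3 and encodes a transcription factor of the POU family. The 5 Skn-1 deficient and the 5 wild-type samples were male mice aged 12 to 16 weeks on chow, all fasted for 18 h before dissection. Per the labels, both genotypes share a mixed 129 x C57BL/6J background with over 10 generations of crossing to C57BL/6J, and the labels name no tissue-restricted Cre or transgene. The samples are called biological replicates, with 1 array each, and p-values measure the spread between these samples.

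Values are the deposited ones, taken as log2 from their range of 4.93 to 13.96, so a difference of 1 is read as a doubling. All differences are Skn-1 deficient minus wild type. Most probe sets of the whole table hardly varied: 86.2% had an SD over the 10 arrays at or below 0.01. A difference in such a probe set has no size that can be read, and just its level is given. All 10 muscle identity markers were measured, with Acta1 at 13.96 in each array, so the muscle label is borne out. The Pou2f3 probe set hardly varied (6.47 in both genotypes, exact two-sided permutation p = 0.571) and does not check the genotype labels. Epidermis and hair markers (14 of 14 measured) had summed levels, in linear values, of 929 to 2817 in Skn-1 deficient arrays and 954 to 2985 in wild-type arrays. The high sums were those of Skn-1 deficient 1 and 4 and in wild type 1 and 3. Not all of these markers were raised alike there. Dsp stood at 7.97 and 8.39 in Skn-1 deficient 1 and 4 and at 7.81 and 7.45 in wild type 1 and 3. Krt1 stood at 7.36 and 7.58 in those Skn-1 deficient arrays against 5.87 and 6.18 in those wild types. Krt27 stood at 5.71 and 5.48 against 9.35 and 8.34. Lymphocyte markers (11 of 12 measured) summed to 817 to 2904 in Skn-1 deficient arrays and 774 to 3019 in wild-type arrays, with high sums in Skn-1 deficient 5 and wild type 3. No marker of these lists was listed at 0. Leaving out these 5 arrays kept 2 Skn-1 deficient and 3 wild-type arrays, and 23 of the 52 chaperone and stress differences with a readable size then moved by over 0.05 and either by over 1.5 times or across 0. These 23 are given without the 5 arrays as well, and none of them was called.

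Chaperones bind unfolded or partly folded proteins, keep them from clumping and use co-chaperones and ATP to help them fold. Heat shock factors switch on the cytosolic set through short inverted repeats in the promoters. In the ER, unfolded proteins set off the unfolded protein response, whose sensors act through Xbp1, Atf6 and Atf4. Muscle relies on small heat shock proteins and on the Bag3 complex to look after the Z-disc and contractile filaments, and Atf4 also answers shortage of amino acids, as in fasting.

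No chaperone or stress gene passed the test between the genotypes. Of 86 probe sets, 0 were higher and 0 lower at a limma adjusted p of 0.05, where 0.155% of all probe sets were called higher and 0.0355% lower. At an unadjusted limma p under 0.05 there were 7 of the 86 (8.14%), against 6.62% of all probe sets. In 3 of the 86 (3.49%) the genotypes did not overlap, against 1.6% of all probe sets. Of the 86, 52 probe sets of 31 genes had an SD above 0.01, and results with a size come from these. The SDs nearest to this limit were 0.0147 for a Calr probe set, which was kept, and 0.00306 for the Hspa5 probe set 1447824_x_at, which was not. Among the 52, 18 differences were above 0 and 34 below it, while all 6209 probe sets with an SD above 0.01 were split 3054 to 3155. The median difference was −0.04 over the 52 and −0.0021 over the 6209. At an unadjusted limma p under 0.05, 5 of the 52 were lower in Skn-1 deficient muscle, against 2.48% of the 6209, and 1 was higher, against 7.44%. Without overlap, 2 of the 52 were lower, against 0.596% of the 6209, and 0 were higher, against 3.37%.

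**Figure D1:**
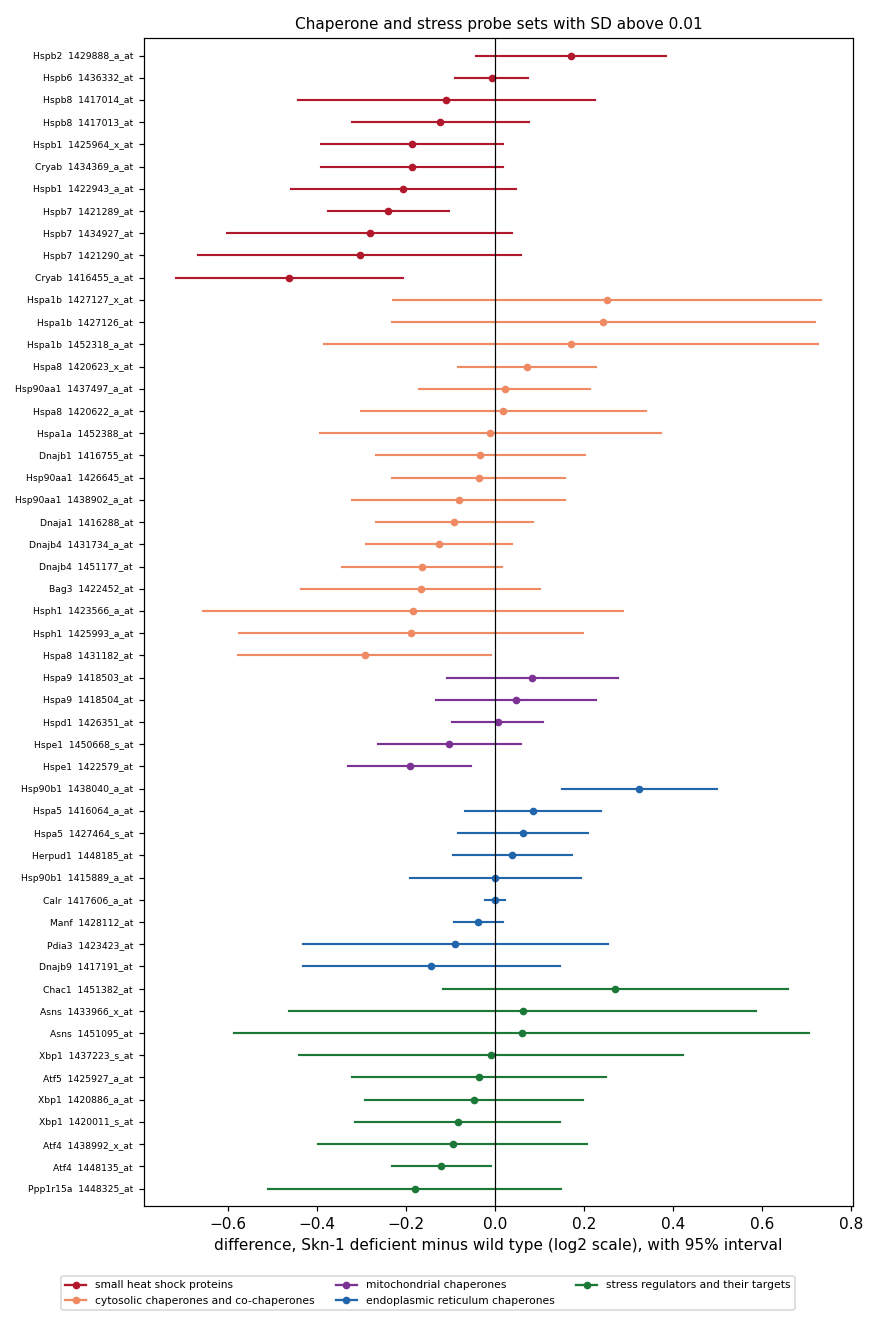
Difference between genotypes for the 52 chaperone and stress probe sets with an SD above 0.01. Points are Skn-1 deficient minus wild-type means on the log2 scale and lines are 95% intervals from the limma fit. Of the 11 small heat shock probe sets, 10 lie below 0, and the other classes lie on both sides.

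The small heat shock proteins, ATP-independent holders of unfolded protein, had the lowest median difference of the 5 classes (−0.19). All 6 genes had a probe set with an SD above 0.01, and 10 of the 11 such probe sets lay below 0, a count that includes up to 3 probe sets of 1 gene. Cryab, which keeps desmin and the Z-disc in order, led the class. Its probe set 1416455_a_at stood at 10.10, 10.50, 10.59, 10.14 and 10.29 in Skn-1 deficient arrays 1 to 5, against 10.78, 10.82, 10.68, 11.00 and 10.65 in wild-type arrays 1 to 5. Every Skn-1 deficient array was thus below every wild-type array. The means were 10.32 ± 0.216 in Skn-1 deficient and 10.79 ± 0.137 in wild-type muscle (SD, n = 5 each), a difference of −0.46 ± 0.11 SE (95% interval −0.72 to −0.21), and wild-type muscle had 1.38 times the Skn-1 deficient level. The limma unadjusted p was 0.00285 and the adjusted p = 0.283, so Cryab did not pass. The 2 lowest values were those of Skn-1 deficient 1 and 4, which had high epidermis markers. Wild type 1 and 3, whose sums of epidermis and hair markers were also high, stood at 10.78 and 10.68. The part of these markers was not tested. Without the 5 arrays with epidermis or lymphocyte markers the difference was −0.28 (limma adjusted p = 0.865). In bulk muscle, fewer cells of a type and less RNA per cell cannot be told apart.

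The other varying Cryab probe set, 1434369_a_at, pointed the same way with overlap. It stood at 11.98, 12.25, 12.27, 11.99 and 12.11 in Skn-1 deficient arrays 1 to 5, against 12.41, 12.43, 12.12, 12.41 and 12.17 in wild-type arrays. Here the Skn-1 deficient arrays 2 and 3 lay above the wild-type arrays 3 and 5. The difference was −0.19 ± 0.090 SE (95% interval −0.39 to 0.02, limma adjusted p = 0.804), and −0.07 without the 5 arrays named above. The last Cryab probe set hardly varied, at a level of 5.97. Hspb2 lies next to Cryab on chromosome 9 and is read in the opposite direction. Its probe set went the other way, at 8.46, 8.49, 8.75, 8.56 and 8.48 in Skn-1 deficient arrays against 8.59, 8.20, 8.19, 8.43 and 8.47 in wild-type arrays. The groups overlapped through wild type 1 and 5, and the difference was 0.17 ± 0.093 SE (limma adjusted p = 0.861). In the gene order of the reference, Cryab and Hspb2 lie 196 and 197 places after Pou2f3, the targeted gene.

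Hspb7, a small heat shock protein of heart and skeletal muscle, was lower in all 3 of its probe sets. Probe set 1421289_at stood at 7.57, 7.86, 7.63, 7.58 and 7.68 in Skn-1 deficient arrays 1 to 5, against 7.87, 7.97, 7.81, 7.92 and 7.96 in wild-type arrays. The sole overlap was that Skn-1 deficient 2 exceeded wild type 3. The difference was −0.24 ± 0.060 SE (95% interval −0.38 to −0.10, limma unadjusted p = 0.00348, adjusted p = 0.312). Without Skn-1 deficient 2 it was −0.29 (limma adjusted p = 0.0716), still short of the threshold. Probe set 1434927_at stood at 10.98, 11.06, 10.52, 10.52 and 10.56 in Skn-1 deficient arrays, against 10.93, 11.28, 10.84, 10.89 and 11.11 in wild-type arrays, a difference of −0.28 ± 0.14 SE (limma adjusted p = 0.821). Skn-1 deficient 1 and 2 were at wild-type levels there, and the other 3 were below all wild types. Probe set 1421290_at had the same split, at 9.15, 9.33, 8.70, 8.74 and 8.65 in Skn-1 deficient arrays, against 9.19, 9.49, 9.01, 9.06 and 9.35 in wild-type arrays (difference −0.30, limma adjusted p = 0.84).

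Hspb1, a further small heat shock protein, binds actin filaments. Its probe set 1425964_x_at stood at 11.20, 11.38, 11.31, 11.00 and 11.16 in Skn-1 deficient arrays, against 11.17, 11.52, 11.34, 11.44 and 11.51 in wild-type arrays, a difference of −0.19 ± 0.090 SE (limma adjusted p = 0.804). Wild type 1 and 3 lay among the Skn-1 deficient values and the other wild types above them. The other Hspb1 probe set differed by −0.21 (limma adjusted p = 0.853). Hspb8, the partner of Bag3, differed by −0.12 and −0.11 in 2 probe sets (limma adjusted p = 0.928 and 0.975), each highest in Skn-1 deficient 3. Hspb8 probe set 1417014_at, the more variable, stood at 8.61, 8.73, 9.23, 8.73 and 8.94 in Skn-1 deficient arrays, against 8.56, 9.0, 9.04, 9.16 and 9.02 in wild-type arrays. The groups overlapped, with wild type 1 below all others. Its remaining probe set hardly varied. Hspb6, the Hsp20 of muscle, stood at 11.57 ± 0.0574 in Skn-1 deficient and 11.58 ± 0.0594 in wild-type muscle (SD, n = 5 each), with a 95% interval of the difference of −0.09 to 0.07.

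**Figure D2:**
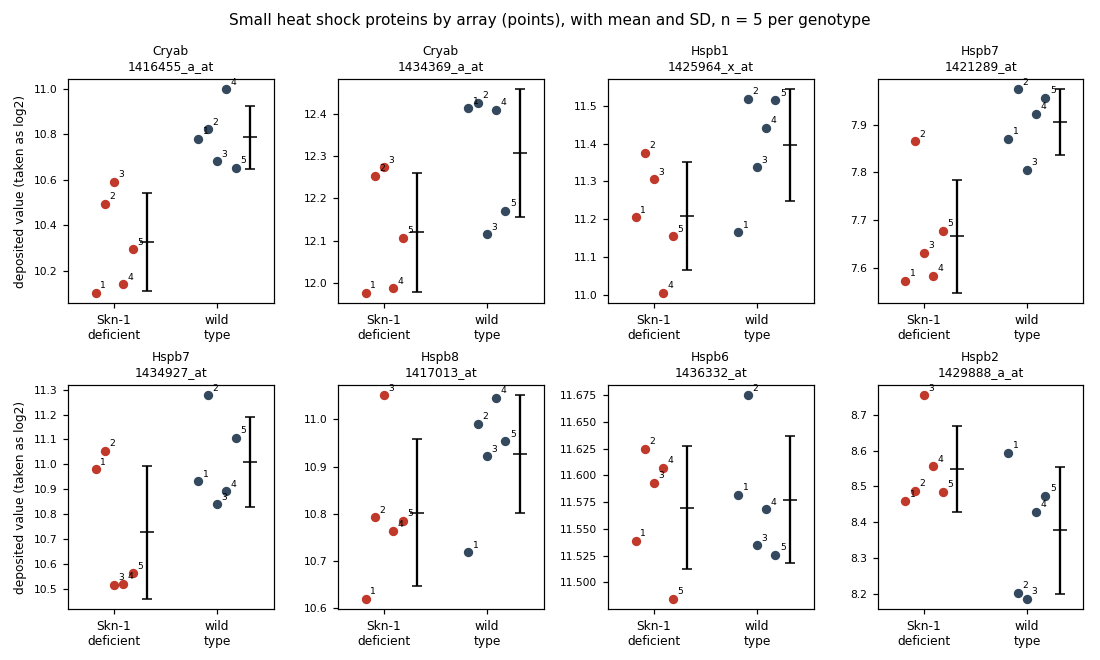
Deposited values of 8 small heat shock probe sets. Each point is an array with its replicate number, and the bar beside each group is mean ± SD (n = 5 per genotype); vertical axes are on the log2 scale and do not start at 0. For Cryab 1416455_a_at the 2 groups do not overlap, with 10.59 as the highest Skn-1 deficient and 10.65 as the lowest wild-type value.

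Wild type 2 was the highest array in 7 of the 11 small heat shock probe sets, and in none of the 11 was it the lowest. The same array had the highest summed level of slow-fibre markers (8 of 8 measured), which ran from 7472 to 9331 in Skn-1 deficient arrays and from 8712 to 11033 in wild-type arrays. The array with 9331, Skn-1 deficient 4, had the lowest mean deviation of the small heat shock class from the probe set means (−0.21). Skn-1 deficient 3, with 7472, had a mean deviation of 0.0009. Endothelium markers (6 of 6 measured) were also highest in wild type 2. They ran from 1739 to 1879 in Skn-1 deficient arrays and from 1804 to 2064 in wild-type arrays. No marker of these 2 lists was at 0, and their part in the small heat shock values was not tested. Bag3, the co-chaperone that joins Hspb8 to Hsp70, was followed beside them. Its probe set stood at 10.15, 10.23, 9.76, 9.93 and 9.81 in Skn-1 deficient arrays, against 10.13, 10.36, 9.92, 10.07 and 10.24 in wild-type arrays, and differed by −0.17 ± 0.12 SE (limma adjusted p = 0.928). Skn-1 deficient 3 and 5 were below all wild types, and Skn-1 deficient 1, 2 and 4 lay within the wild-type range.

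The cytosolic chaperones and co-chaperones had 25 probe sets of 10 genes, 17 of them with an SD above 0.01, and a median difference of −0.04. That median was −0.094 without Skn-1 deficient 2, and above 0 without Skn-1 deficient 4 (0.012) and without the 5 arrays with epidermis or lymphocyte markers (0.021). The widest spread between arrays in this class was that of Hspa1b, which with Hspa1a encodes the inducible Hsp70, and 1 array stood far above the others. Hspa1b probe set 1452318_a_at stood at 7.97, 9.12, 7.85, 7.90 and 7.93 in Skn-1 deficient arrays 1 to 5, against 7.88, 7.92, 8.18, 7.88 and 8.06 in wild-type arrays. Probe set 1427126_at stood at 6.95, 8.0, 6.92, 7.04 and 7.04 in Skn-1 deficient arrays, against 6.75, 6.90, 7.10, 6.92 and 7.06 in wild-type arrays. Skn-1 deficient 2 was the highest of the 10 arrays in each, and the other Skn-1 deficient arrays lay within the wild-type range or, for Skn-1 deficient 3 in 1452318_a_at, just below it. The remaining Hspa1b probe set, 1427127_x_at, also had Skn-1 deficient 2 on top, at 7.55, 8.55, 7.39, 7.63 and 7.55 in Skn-1 deficient arrays, against 7.32, 7.46, 7.63, 7.41 and 7.61 in wild-type arrays. Hspa1a showed the same array at the top, with 7.41, 8.13, 7.31, 7.29 and 7.33 in Skn-1 deficient arrays, against 7.27, 7.62, 7.47, 7.55 and 7.61 in wild-type arrays. The 2 genes are near-identical copies, so their probe sets may read each other's transcript and are not independent.

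The mean differences of these genes rested on that array. Hspa1b differed by 0.25 ± 0.21 SE, 0.24 ± 0.21 SE and 0.17 ± 0.24 SE in its 3 probe sets (limma adjusted p = 0.946, 0.947 and 0.978). Without Skn-1 deficient 2 the differences were 0.047, 0.040 and −0.071. Hspa1a differed by −0.01 ± 0.17 SE, and by −0.17 without Skn-1 deficient 2 (limma adjusted p = 0.848). Skn-1 deficient 2 was not among the arrays with high epidermis or lymphocyte markers, with sums of 1012 and 817. The Hspa1b promoter is shown because this gene had the widest spread between arrays in its class. The part of heat shock units, the inverted repeats named above, in the values of Skn-1 deficient 2 was not tested. The window is chr17:34959189-34959488 on the minus strand of GRCm38.p6, 300 bases around the gene's start from RefSeq, printed 5′ to 3′. Capitals mark the single match to the heat shock unit GAANNTTC or TTCNNGAA, each of which reads the same on both strands.
Hspa1b: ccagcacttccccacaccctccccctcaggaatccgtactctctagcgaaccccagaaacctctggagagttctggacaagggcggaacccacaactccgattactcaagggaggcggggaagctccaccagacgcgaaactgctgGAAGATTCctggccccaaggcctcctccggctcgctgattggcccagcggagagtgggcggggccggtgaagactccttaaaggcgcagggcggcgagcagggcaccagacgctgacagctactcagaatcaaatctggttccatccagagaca
Of 34 genes of the list with such a window, 14 held either unit, among them Hspa1a, Hspa1b, Hspb1, Hspb8, Bag3, Hsph1, Dnaja1 and Dnajb4. Counted by window, 15 of the 42 windows of these genes held either unit, against 15.1% of all 32851 windows of this length. A match is a run of letters and not a measured binding site.

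**Figure D3:**
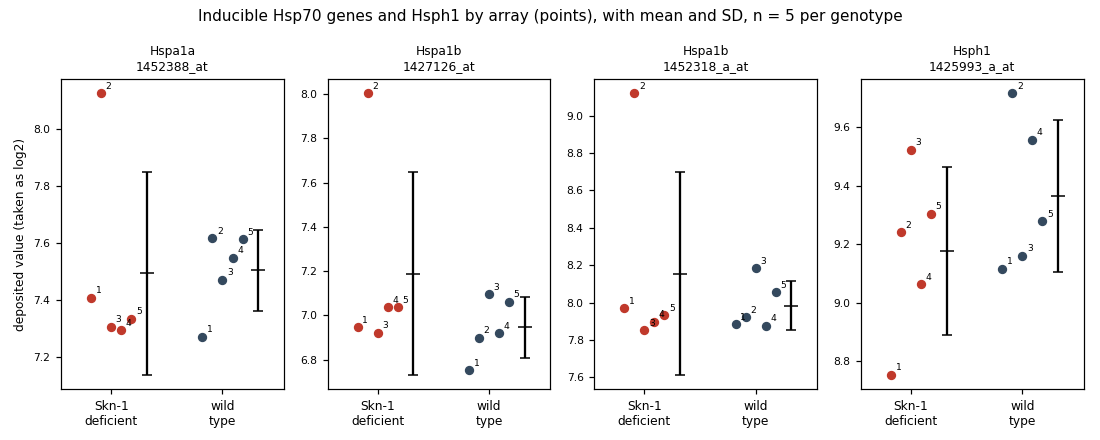
Deposited values of Hspa1a, 2 Hspa1b probe sets and Hsph1. Each point is an array with its replicate number, and the bar beside each group is mean ± SD (n = 5 per genotype), with log2 axes that do not start at 0. Skn-1 deficient 2 is alone at the top for Hspa1a and Hspa1b (8.13, 8.0 and 9.12) and is not so for Hsph1 (9.24).

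Hsph1, the Hsp110 that exchanges nucleotide on Hsp70, did not follow Hspa1b. Its probe set 1425993_a_at stood at 8.75, 9.24, 9.52, 9.06 and 9.31 in Skn-1 deficient arrays, against 9.12, 9.72, 9.16, 9.56 and 9.28 in wild-type arrays. Skn-1 deficient 1 was lowest and wild type 2 highest, and the difference was −0.19 ± 0.17 SE (limma adjusted p = 0.951). Probe set 1423566_a_at was at 7.09, 7.37, 8.01, 7.41 and 7.75 in Skn-1 deficient arrays, against 7.33, 8.03, 7.61, 8.03 and 7.54 in wild-type arrays, again lowest in Skn-1 deficient 1 (difference −0.18, limma adjusted p = 0.969). Dnajb4, an Hsp40 co-chaperone found with filamin in muscle, was lower by a like amount in 2 probe sets. Probe set 1451177_at stood at 9.27, 9.50, 9.52, 9.36 and 9.36 in Skn-1 deficient arrays, against 9.37, 9.64, 9.47, 9.73 and 9.62 in wild-type arrays (difference −0.16 ± 0.079 SE, limma adjusted p = 0.804). Probe set 1431734_a_at stood at 7.57, 7.83, 7.93, 7.71 and 7.80 in Skn-1 deficient arrays, against 7.78, 7.97, 7.89, 7.99 and 7.84 in wild-type arrays (difference −0.13, limma adjusted p = 0.871). Skn-1 deficient 1 was the lowest array in both Dnajb4 probe sets as well.

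Hspa8, the constitutive Hsc70, had probe sets that disagreed. Probe set 1431182_at stood at 6.39, 6.30, 6.22, 5.93 and 6.36 in Skn-1 deficient arrays, against 6.37, 6.85, 6.55, 6.30 and 6.61 in wild-type arrays, and differed by −0.29 ± 0.12 SE (limma unadjusted p = 0.0449, adjusted p = 0.742). The groups overlapped, with wild type 1 and 4 among the Skn-1 deficient values. Probe set 1420623_x_at differed by 0.07 ± 0.068 SE and 1420622_a_at by 0.02 ± 0.14 SE. In probe set 1420622_a_at Skn-1 deficient 4 stood apart, at 9.72 against 10.16 to 10.34 in the rest of its group. The fourth Hspa8 probe set hardly varied, at 11.58. Hspa8 lies 47 places before Pou2f3 on chromosome 9.

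Hsp90aa1, Dnaja1 and Dnajb1 differed by little, and their arrays lined up. Hsp90aa1, the inducible cytosolic Hsp90, differed by −0.08, −0.04 and 0.02 in its 3 varying probe sets, with 95% intervals inside −0.32 to 0.21. Dnaja1 and Dnajb1, Hsp40 partners of Hsp70, differed by −0.09 and −0.03 (limma adjusted p = 0.946 and 0.998). Wild type 3 was the highest array in all 5 of these probe sets, and the lowest was Skn-1 deficient 1 or 4 or wild type 1. Those 4 arrays are the ones with high sums of epidermis and hair markers, though not all of the same markers in each genotype. Wild type 3 also had the highest sums of lymphocyte, adipocyte and macrophage markers (3019, 21562 and 5219). The part of these markers was not tested. Chordc1, an Hsp90 co-chaperone, had 1 probe set that hardly varied, at 8.93. Of the other low-variation probe sets of this class, 2 belonged to Hsp90aa1, 2 to Dnaja1 and 1 each to Dnajb1 and Dnajb4.

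The mitochondrial chaperones fold imported proteins, with Hspa9 pulling them in and Hspd1 and Hspe1 forming the Hsp60 and Hsp10 chamber. Of their 8 probe sets, 5 had an SD above 0.01, and their median difference was 0.0059. Hspe1 probe set 1422579_at stood at 8.41, 8.40, 8.42, 8.25 and 8.41 in Skn-1 deficient arrays, against 8.73, 8.44, 8.64, 8.48 and 8.56 in wild-type arrays. All Skn-1 deficient arrays lay below all wild types, the nearest being Skn-1 deficient 3 and wild type 2. The difference was −0.19 ± 0.060 SE (95% interval −0.33 to −0.05), with a limma unadjusted p of 0.0119 and an adjusted p = 0.509. Without the 5 arrays with epidermis or lymphocyte markers it was −0.085 (limma adjusted p = 0.878). The other Hspe1 probe set, 1450668_s_at, stood at 9.73, 9.70, 9.57, 9.60 and 9.58 in Skn-1 deficient arrays, against 9.96, 9.75, 9.73, 9.57 and 9.69 in wild-type arrays. These groups overlapped and differed by −0.10 ± 0.070 SE (limma adjusted p = 0.92).

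Hspd1, which pairs with Hspe1 in the same chamber, stood at 10.04 ± 0.0653 in Skn-1 deficient and 10.03 ± 0.0790 in wild-type muscle (SD, n = 5 each), with a 95% interval of the difference of −0.10 to 0.11. Its values were 9.94, 9.99, 10.07, 10.09 and 10.09 in Skn-1 deficient arrays, against 9.97, 10.14, 10.04, 10.06 and 9.94 in wild-type arrays, and the groups overlapped over nearly their whole ranges. Hspa9 differed by 0.08 and 0.05 in 2 probe sets (limma adjusted p = 0.961 and 0.986), and its other 3 hardly varied. Hspa9 probe set 1418503_at stood at 9.55, 9.63, 9.87, 9.86 and 9.91 in Skn-1 deficient arrays, against 9.52, 9.72, 9.66, 9.81 and 9.70 in wild-type arrays, and 1418504_at at 9.86, 9.97, 10.16, 10.03 and 10.16 in Skn-1 deficient arrays, against 9.88, 10.13, 9.98, 10.10 and 9.86 in wild-type arrays. The groups overlapped in both. Hspd1 and Hspe1 lie side by side and are read from a shared promoter region in opposite directions. The Hspe1 window is shown for that reason and because Hspe1 led its class. It is chr1:55087898-55088197 on the plus strand of GRCm38.p6 (RefSeq), and the capitals mark 3 overlapping heat shock units.
Hspe1: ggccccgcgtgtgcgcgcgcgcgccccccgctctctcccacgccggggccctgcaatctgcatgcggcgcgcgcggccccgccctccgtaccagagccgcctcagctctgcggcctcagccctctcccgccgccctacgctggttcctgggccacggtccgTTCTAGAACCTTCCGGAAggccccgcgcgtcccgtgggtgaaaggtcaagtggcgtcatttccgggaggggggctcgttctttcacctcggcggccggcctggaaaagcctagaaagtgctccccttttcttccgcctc
The share of all windows with at least 1 of the units is the 15.1% given above.

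The ER chaperones had 22 probe sets of 12 genes, of which 9 had an SD above 0.01, with a median difference of 0.00072. Hsp90b1, the ER Hsp90 also called Grp94, had the smallest unadjusted p of all 52 varying probe sets. Its probe set 1438040_a_at stood at 9.04, 8.99, 8.87, 8.78 and 9.05 in Skn-1 deficient arrays, against 8.66, 8.54, 8.83, 8.59 and 8.50 in wild-type arrays. The sole overlap was wild type 3, which exceeded Skn-1 deficient 4. The difference was 0.32 ± 0.076 SE (95% interval 0.15 to 0.50), or 1.25 times the wild-type level, with a limma unadjusted p of 0.00244 and an adjusted p = 0.265. The second Hsp90b1 probe set, 1415889_a_at, did not share this. It stood at 9.39, 9.54, 9.46, 9.53 and 9.76 in Skn-1 deficient arrays, against 9.44, 9.50, 9.77, 9.45 and 9.52 in wild-type arrays, with a difference of 0.00072 ± 0.084 SE (95% interval −0.19 to 0.19). The difference between the probe sets was not tested.

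Hspa5, the ER Hsp70 known as BiP, holds the sensors of the unfolded protein response in check. Probe set 1416064_a_at stood at 9.74, 9.91, 9.69, 9.87 and 9.97 in Skn-1 deficient arrays, against 9.72, 9.77, 9.91, 9.66 and 9.69 in wild-type arrays, and differed by 0.08 ± 0.067 SE (limma adjusted p = 0.939). Probe set 1427464_s_at stood at 9.13, 9.25, 9.08, 9.20 and 9.22 in Skn-1 deficient arrays, against 9.17, 9.04, 9.30, 9.09 and 8.96 in wild-type arrays (difference 0.06, 95% interval −0.08 to 0.21). The groups overlapped in both. Dnajb9, an ER J protein that works with Hspa5, stood at 10.63, 10.71, 10.46, 10.38 and 10.44 in Skn-1 deficient arrays, against 10.28, 10.95, 10.59, 10.69 and 10.82 in wild-type arrays (difference −0.14 ± 0.13 SE, limma adjusted p = 0.95). Wild type 1 was lowest and wild type 2 highest, so the wild-type spread enclosed all Skn-1 deficient arrays. Manf, a secreted ER stress protein, differed by −0.04 ± 0.024 SE and Herpud1, of ER-associated degradation, by 0.04 ± 0.058 SE. Manf stood at 8.01, 8.08, 8.04, 8.05 and 8.11 in Skn-1 deficient arrays, against 8.12, 8.06, 8.16, 8.06 and 8.09 in wild-type arrays, lowest in Skn-1 deficient 1 and highest in wild type 3. Calr, calreticulin, stood at 9.43 in both genotypes, and its difference had a 95% interval of −0.02 to 0.02.

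Pdia3, a disulfide isomerase that works with calreticulin, was highest in 2 arrays, 1 of each genotype. It stood at 8.17, 8.37, 8.52, 8.41 and 8.88 in Skn-1 deficient arrays, against 8.27, 8.53, 8.91, 8.54 and 8.55 in wild-type arrays. Skn-1 deficient 5 and wild type 3 were the 2 highest, and these were the arrays with high lymphocyte markers. The same 2 arrays were highest for Hsp90b1 1415889_a_at. The Pdia3 difference was −0.09 ± 0.15 SE (limma adjusted p = 0.986), and −0.10 without these 2 arrays. The part of the lymphocyte markers in these values was not tested. Pdia4, Pdia6, Sdf2l1, Creld2 and Dnajb14 had just low-variation probe sets. Dnajb14, an ER-membrane J protein, had 1 of these (1430561_at, near 6.51) with all Skn-1 deficient arrays above all wild types and the smallest adjusted p of the list (limma adjusted p = 0.0908), but no size that can be read. With array weights it passed (limma adjusted p = 0.0379).

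The Hsp90b1 promoter is shown because this gene led the class. The window, chr10:86705395-86705694 on the minus strand of GRCm38.p6 (RefSeq), has in capitals 2 matches to the ER stress element, searched on both strands.
Hsp90b1: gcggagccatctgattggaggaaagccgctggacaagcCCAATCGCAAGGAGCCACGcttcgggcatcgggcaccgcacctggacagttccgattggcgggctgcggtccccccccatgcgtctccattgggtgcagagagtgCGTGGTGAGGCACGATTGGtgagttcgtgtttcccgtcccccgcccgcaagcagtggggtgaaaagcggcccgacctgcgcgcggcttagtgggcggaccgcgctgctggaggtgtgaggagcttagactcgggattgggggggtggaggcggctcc
The element was found in 5 of the 34 genes with a window (Hsp90b1, Hspa5, Calr, Creld2 and Pdia6). Counted by window it was in 5 of their 42, against 0.119% of all 32851 windows.

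The regulators of the unfolded protein and integrated stress responses and their targets had 18 probe sets of 9 genes, 10 of them with an SD above 0.01, and a median difference of −0.04. That median was −0.14 without wild type 1 and −0.0058 without the 2 arrays with lymphocyte markers. Atf4, the factor translated when eIF2 is phosphorylated, was the one with an unadjusted limma p under 0.05. Its probe set 1448135_at stood at 10.48, 10.46, 10.33, 10.34 and 10.35 in Skn-1 deficient arrays, against 10.42, 10.63, 10.47, 10.46 and 10.58 in wild-type arrays. Skn-1 deficient 3, 4 and 5 were below all wild types, while Skn-1 deficient 1 and 2 were not. The difference was −0.12 ± 0.049 SE (95% interval −0.23 to −0.01, limma unadjusted p = 0.037, adjusted p = 0.716). The x_at probe set 1438992_x_at stood at 9.28, 9.22, 8.87, 8.79 and 8.80 in Skn-1 deficient arrays, against 8.87, 9.14, 9.23, 8.91 and 9.29 in wild-type arrays (difference −0.10, limma adjusted p = 0.977). Skn-1 deficient 1 and 2 were again the highest of their group, while wild type 5 was the highest array of both genotypes.

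Atf5, a related factor, had this split within the Skn-1 deficient group too. It stood at 8.34, 8.26, 7.85, 7.80 and 7.83 in Skn-1 deficient arrays, against 8.13, 8.08, 7.96, 7.89 and 8.19 in wild-type arrays. Skn-1 deficient 1 and 2 were above all wild types and the other 3 below all of them, so that the difference was −0.04 ± 0.12 SE. Ppp1r15a, which leads phosphatase to eIF2, stood at 8.81, 8.64, 8.43, 8.54 and 8.43 in Skn-1 deficient arrays, against 8.37, 9.09, 8.60, 8.73 and 8.97 in wild-type arrays (difference −0.18 ± 0.14 SE, limma adjusted p = 0.94). Wild type 1 was lowest and wild type 2 highest. Chac1, a glutathione-degrading target of Atf4, stood at 11.31, 11.01, 11.08, 11.34 and 10.63 in Skn-1 deficient arrays, against 10.39, 11.10, 10.77, 10.95 and 10.79 in wild-type arrays. Skn-1 deficient 1 and 4 were above all wild types and Skn-1 deficient 5 was below all but 1. The difference was 0.27 ± 0.17 SE (95% interval −0.12 to 0.66, limma adjusted p = 0.903), and 0.095 without the 5 arrays with epidermis or lymphocyte markers.

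Asns, asparagine synthetase, is a further target of Atf4 and had the widest spread of the list (SD over the 10 arrays 0.434). Its probe set 1451095_at stood at 6.79, 6.76, 6.73, 7.25 and 7.54 in Skn-1 deficient arrays, against 6.49, 6.91, 7.73, 6.44 and 7.21 in wild-type arrays. Wild type 3 and Skn-1 deficient 5, with the high lymphocyte markers, were again the 2 highest. Probe set 1433966_x_at had the same 2 on top, at 6.27, 6.28, 6.21, 6.69 and 6.75 in Skn-1 deficient arrays, against 6.10, 6.42, 7.01, 5.80 and 6.56 in wild-type arrays. The highest array had 2.46 times the level of the lowest in 1451095_at and 2.31 times in 1433966_x_at. Adipocyte markers (8 of 10 measured, none at 0) were also highest in these 2 arrays, with sums of 14064 to 19144 in Skn-1 deficient arrays and 13730 to 21562 in wild-type arrays. So were macrophage markers (8 of 8, none at 0), with 2901 to 4540 in Skn-1 deficient arrays and 2451 to 5219 in wild-type arrays. The part of these marker lists in Asns was not tested. Between genotypes Asns differed by 0.06 in each probe set (limma adjusted p = 1.0 and 0.999).

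**Figure D4:**
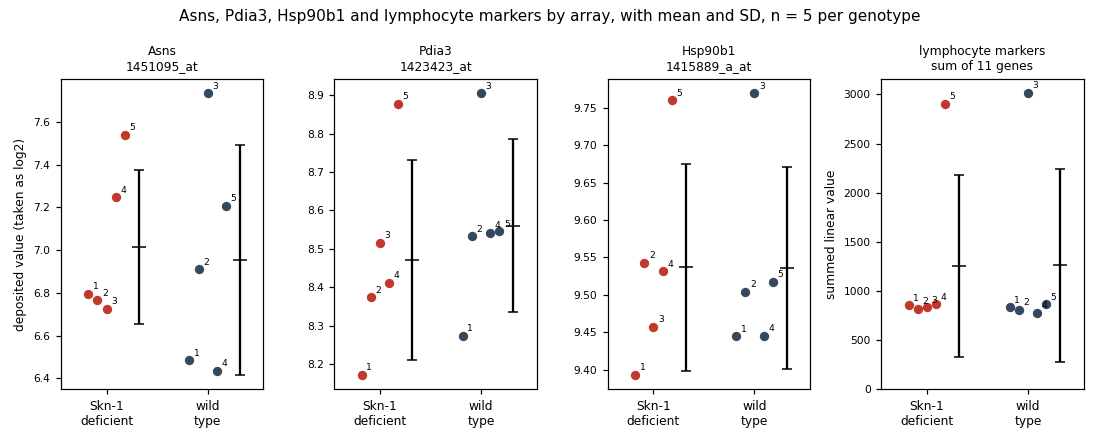
Deposited values of Asns, Pdia3 and Hsp90b1 (log2 axes that do not start at 0) and the summed linear level of 11 lymphocyte marker genes. Each point is an array with its replicate number, and the bar is mean ± SD (n = 5 per genotype). Skn-1 deficient 5 and wild type 3, with marker sums of 2904 and 3019, are the 2 highest arrays in all 4 panels.

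The Asns promoter is shown because this gene varied most. The window is chr6:7693160-7693459 on the minus strand of GRCm38.p6 (RefSeq). Capitals mark a match to the amino acid response element TGATGNAA, searched on both strands, which runs into a heat shock unit GAANNTTC.
Asns: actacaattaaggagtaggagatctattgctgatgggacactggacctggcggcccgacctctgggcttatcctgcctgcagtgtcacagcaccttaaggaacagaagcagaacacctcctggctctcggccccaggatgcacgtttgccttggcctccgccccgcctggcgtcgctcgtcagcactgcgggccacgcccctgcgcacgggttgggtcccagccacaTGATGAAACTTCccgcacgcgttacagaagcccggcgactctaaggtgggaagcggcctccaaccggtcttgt
The response element was in 4 of the 34 genes with a window (Asns, Chac1, Herpud1 and Trib3). Counted by window it was in 4 of their 42, against 3.97% of all windows. In Skn-1 deficient 5 and wild type 3, the arrays highest for Asns, Chac1 stood at 10.63 and 10.77 and Herpud1 at 10.11 and 9.98. Trib3 hardly varied. The part of the element in these values was not tested.

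Xbp1, whose spliced form drives ER chaperone genes, was near even in its 3 varying probe sets. Probe set 1437223_s_at stood at 9.77, 9.91, 10.00, 9.97 and 10.17 in Skn-1 deficient arrays, against 9.28, 10.29, 10.24, 10.00 and 10.07 in wild-type arrays. Wild type 1 stood apart below the rest. The difference was −0.0095 ± 0.19 SE (95% interval −0.44 to 0.42). Probe sets 1420011_s_at and 1420886_a_at differed by −0.08 and −0.05 (limma adjusted p = 0.972 and 0.991), and wild type 1 was the lowest array there too. The values of 1420011_s_at were 8.99, 9.09, 9.21, 8.96 and 9.15 in Skn-1 deficient arrays, against 8.82, 9.28, 9.35, 9.14 and 9.23 in wild-type arrays, so wild type spanned the Skn-1 deficient values. The arrays measure the total transcript and not its splicing. Ddit3, Trib3 and Sesn2, further targets of the stress response, had 2 probe sets each, all of low variation, and the remaining probe sets of Atf4 and Xbp1 hardly varied either.

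**Figure D5:**
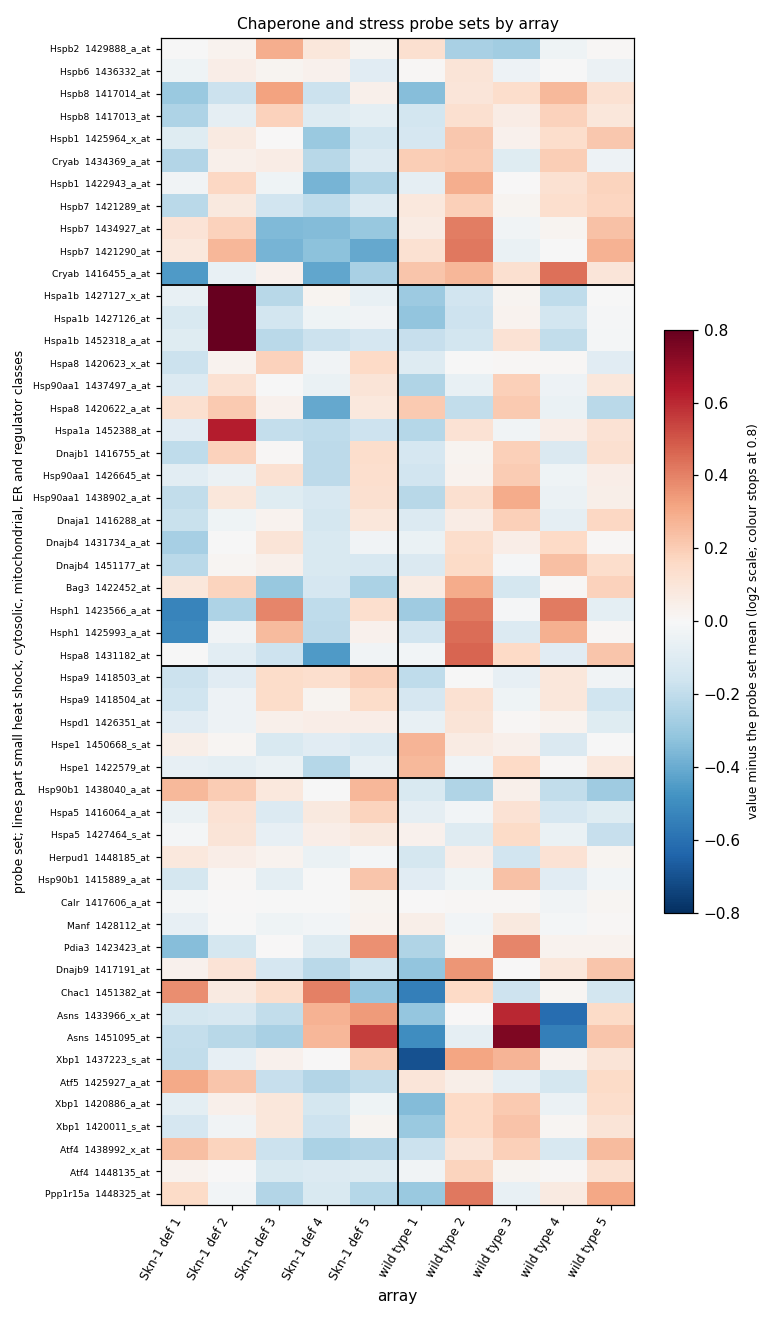
Each row is a chaperone or stress probe set with an SD above 0.01 and each column an array, Skn-1 deficient on the left of the vertical line and wild type on the right. Colour is the value minus that probe set's mean over the 10 arrays on the log2 scale, and the colour stops at 0.8. The Hspa1b rows are reddest in Skn-1 deficient 2, and the Asns rows in wild type 3.

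Without the 5 arrays with epidermis or lymphocyte markers, the Skn-1 deficient arrays left were 2 and 3, and the differences changed in both directions. In that smaller comparison Hspa1b differed by 0.48, 0.50 and 0.54 in 1427127_x_at, 1427126_at and 1452318_a_at, and Skn-1 deficient 2 was then 1 of 2 arrays. Hspa1a differed by 0.12. Hspa8 differed by 0.28 in 1420622_a_at (limma unadjusted p = 0.0403, adjusted p = 0.837) and by 0.14 in 1420623_x_at. Dnajb1 (0.086) and Hsp90aa1 1426645_at (0.021) were above 0, and Dnajb4 1431734_a_at was at −0.055. The small heat shock gene Hspb1 differed by −0.13 in 1422943_a_at. Among mitochondrial chaperones, Hspe1 1450668_s_at differed by −0.035 and Hspa9 1418503_at by 0.0079. In the ER class, Dnajb9 differed by −0.24, Hspa5 1427464_s_at by 0.13 and Herpud1 by −0.026. Of the regulators and targets, Ppp1r15a differed by −0.40, Xbp1 1437223_s_at by −0.16, and Asns by −0.11 in 1451095_at and −0.014 in 1433966_x_at. The smallest limma adjusted p of the 52 in this comparison was 0.81.

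The array at the top or bottom of a probe set was uneven across the list. Of the 52 varying probe sets, 15 (28.8%) were highest in wild type 2 and 14 (26.9%) in wild type 3, against 12.1% and 13.96% of all 6209. Skn-1 deficient 1 was the lowest array in 13 (25.0%), against 15.6% of all, and wild type 1 in another 13 (25.0%), against 25.2% of all. Neither Skn-1 deficient 2 nor wild type 2 was the lowest in any of the 52, against 7.10% and 8.65% of all 6209. The mean deviation of the cytosolic class was highest in Skn-1 deficient 2 (0.23) and lowest in Skn-1 deficient 4 (−0.17), while that of the small heat shock class ran from −0.21 in Skn-1 deficient 4 to 0.19 in wild type 2. That of the ER class was highest in Skn-1 deficient 5 (0.11) and wild type 3 (0.10). Over all 6209 the mean deviation was also highest in these 2 arrays, at 0.072 and 0.064. There it was −0.020 in Skn-1 deficient 2, 0.016 in Skn-1 deficient 4 and 0.0028 in wild type 2. Where a gene had more than 1 varying probe set, 14 of 16 genes had the same sign in all of them, 9 lower and 5 higher in Skn-1 deficient muscle. The 2 with mixed signs were Hspa8 and Hsp90aa1. The count of 14 includes differences near 0, such as 0.00072 for Hsp90b1 1415889_a_at and −0.0095 for Xbp1 1437223_s_at. These 2 and both Asns probe sets changed sign in some alternatives, so the count overstates how well probe sets agreed.

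Other genes of the same pathways were not called either. A further 98 genes were listed, 94 of them with a probe set, which gave 246 probe sets, 72 with an SD above 0.01. None of the 246 passed (limma), 11 were higher and 8 lower at an unadjusted p under 0.05, and 39 of the 72 were above 0. The share at an unadjusted limma p under 0.05 was 7.72% of the 246, against 6.62% of all probe sets. The genotypes did not overlap in 2.44% of the 246, against 1.6% of all probe sets. In the list of other cytosolic and nuclear folding genes, Dnaja4, an Hsp40 on chromosome 9 and 273 places after Pou2f3, had the 2 smallest unadjusted p. Dnaja4 probe set 1434196_at stood at 7.46, 7.63, 7.73, 7.88 and 7.88 in Skn-1 deficient arrays, against 8.35, 8.17, 7.99, 8.18 and 8.17 in wild-type arrays. Probe set 1418591_at stood at 7.38, 7.66, 7.87, 7.60 and 7.76 in Skn-1 deficient arrays, against 8.06, 8.04, 7.91, 7.98 and 7.91 in wild-type arrays. In both, every Skn-1 deficient array was below every wild-type array, and the differences were −0.45 ± 0.095 SE and −0.32 ± 0.086 SE (limma adjusted p = 0.185 and 0.367), so neither passed.

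Among other mitochondrial genes, Clpx and Dnaja3 differed by 0.10 and 0.08 (limma adjusted p = 0.947 and 0.978). P4hb and Sec61a1, of other ER folding and degradation genes, differed by −0.04 and −0.08 (limma adjusted p = 0.972 and 0.974). For other genes of the unfolded protein and integrated stress responses the smallest p were those of Vldlr and Atf6. Vldlr, a lipoprotein receptor that Atf4 can induce, stood at 8.13 ± 0.0854 in Skn-1 deficient and 7.89 ± 0.106 in wild-type muscle (SD, n = 5 each), without overlap (difference 0.24 ± 0.059 SE, limma adjusted p = 0.298). Atf6, an ER stress sensor, stood at 7.21 ± 0.0961 in Skn-1 deficient and 7.02 ± 0.0788 in wild-type muscle (SD, n = 5 each; difference 0.20 ± 0.054 SE, limma adjusted p = 0.399). Neither passed.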

How the data were processed

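RNA of 10 gastrocnemius muscles was labelled from 100 ng with a 3′ kit and read on Affymetrix mouse arrays, per the labels' protocols. The deposited table holds values read as log2 and taken as normalized before deposit. Array medians ran from 6.23 to 6.24. Since 86.2% of probe sets hardly varied, these medians cannot show whether the arrays were normalized. Over the 6209 probe sets with an SD above 0.01, the median deviation from the probe set mean ran from −0.094 in wild type 1 to 0.027 in Skn-1 deficient 5. Software, summarization and log base were not given in the sources used here. Of 45101 rows, 64 array controls were left out. Of the rest, 34945 probe sets had 1 gene in the platform annotation, 932 had several and 9160 none, and 34741 were matched to RefSeq symbols (GRCm38.p6).

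The genotype difference was tested on all 45037 probe sets by lmFit and eBayes of limma 3.58.1 (R 4.3.3), with Benjamini-Hochberg adjustment over all of them. The fit was tested on simulated data. The number of arrays limits the precision, and no pseudocount was used. The 41 genes, the lists and the motifs were chosen with earlier results of these data known. Values per array are given, among others, for up to 5 varying probe sets per class with the smallest p and up to 3 with the largest SD, and for those past the threshold. Marker sums add 2 to the power of each gene's brightest probe set. Promoters came from RefSeq windows. Alternatives covered scaling, filters, moderation, array weights, replicate block, left-out arrays and the probe set per gene; leaving out arrays with markers of other tissues was added after seeing the data.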

Additional observations from a re-analysis of the deposited data

Results flagged for a closer look

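In 9 of 104 groups of 5 arrays checked, 1 array lay far from the other 4 by Dixon's criterion, which chance does in about 1 of 20 groups. Skn-1 deficient 2 accounted for 4 of them, at 8.55, 8.0 and 9.12 in the Hspa1b probe sets 1427127_x_at, 1427126_at and 1452318_a_at and at 8.13 in Hspa1a. These probe sets read near-identical genes and are not independent. Skn-1 deficient 4 lay below its group in Hspa8 1420622_a_at, at 9.72, and in Hspe1 1422579_at, at 8.25. Wild type 1 lay below its group in Hspb8 1417014_at, at 8.56, and in Xbp1 1437223_s_at, at 9.28. Wild type 3 lay above its group in Hsp90b1 1415889_a_at, at 9.77.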

How the results depend on the processing

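Over 21 alternatives, 0 chaperone or stress probe sets were called lower in each, and 0 higher in all but 1. With array weights 1 was called higher, Dnajb14 1430561_at, whose size cannot be read. None of the 52 probe sets with an SD above 0.01 was called under any alternative, and 36 of them kept their sign in all. At an unadjusted p under 0.05, 1 to 4 probe sets were higher and 1 to 9 lower. The median difference ran from −0.244 to −0.130 for small heat shock proteins, from −0.0945 to 0.0208 for cytosolic chaperones (across 0 in 2 of 21), from −0.0176 to 0.0328 for mitochondrial chaperones and from −0.0074 to 0.0220 for ER chaperones (each across 0 in 8 of 21), and from −0.142 to −0.0058 for regulators. The calls over all probe sets were less stable, at 86 in the fit reported, 43 with quantile normalization, 143 with the SD filter, 5 with the brightest probe set per gene, 16 without the 2 arrays with lymphocyte markers, 0 without the 5 arrays with epidermis or lymphocyte markers and 31 to 57 without 1 array. With the replicate number as a block 5 probe sets were called, none of them a chaperone or stress gene. Same-numbered arrays correlated at 0.250, 0.322, −0.400, 0.0229 and −0.144, and 2 of 5 correlated best with their own number. With 5 pairs, these correlations cannot show whether the numbers stand for a pairing. The block changed no call of the list. Small differences that changed sign follow, and their cause was not tested. Quantile normalization gave 0.0014 for Hspb6, −0.0105 for Hspd1 and −0.0050 for Hsp90b1 1415889_a_at, which was −8.2e-05 with centred arrays. Array weights gave 0.0079 for Hspb6, −0.0143 for Hsp90aa1 1437497_a_at and 0.00098 for Calr. Without the 2 arrays the values were 0.0031 for Hspb6, 0.0208 for Hspa1a, −0.0038 for Hspd1, and 0.0014 and 0.0059 for Xbp1 1420886_a_at and 1437223_s_at. Without the 5 arrays they were 0.0193 for Hspb6, 0.0208 for Hsp90aa1 1426645_at, 0.0862 for Dnajb1, 0.123 for Hspa1a, −0.0136 for Hspd1, −0.0260 for Herpud1, 0.00071 for Calr, and −0.0143 and −0.106 for Asns 1433966_x_at and 1451095_at. Leaving out each array in turn gave −0.0213 to 0.0170 for Hspb6, −0.0707 to 0.246 for Hspa1b 1452318_a_at, −0.0802 to 0.0115 for Hsp90aa1 1426645_at, −0.0367 to 0.0723 for 1437497_a_at, −0.0840 to 0.0151 for Dnajb1 and −0.0327 to 0.123 for Hspa8 1420622_a_at. It gave −0.169 to 0.0391 for Hspa1a, −0.0176 to 0.0328 for Hspd1, −0.0074 to 0.0033 for Calr, −0.0551 to 0.0591 for Hsp90b1 1415889_a_at and −0.117 to 0.0172 for Atf5. For Asns it gave −0.0819 to 0.221 (1433966_x_at) and −0.0716 to 0.254 (1451095_at), and for Xbp1 1437223_s_at −0.184 to 0.0689.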
